A study of Populus trichocarpa
Populus deltoides with 74 samples.

Results

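Basal shoot tips of poplar were set against shoot tips of the same month and tree age that carry no basal label, called upper tips here. Both kinds came from wild type trees labelled female, collected in May at age 5, with Populus trichocarpa and Populus deltoides named together as the organism. The source names chose the members, with no measured value. They gave 8 of the 74 arrays of the series, which are 4 of its 37 RNA isolations: isolations a and b of basal tips and isolations a and b of upper tips, each hybridised to 2 wells with Cy5 as the only label. The labels do not say how many trees gave a tip sample, where on the tree a basal tip sat, or whether isolations a and b came from separate trees. P-values therefore measure the spread between isolations, which may be technical.

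The other samples used were the same tip types from the same kind of trees: May tips at age 6, June tips at ages 5 and 6, and May upper tips at ages 1 and 2. Each of these groups had 2 isolations except the June upper tips of age 5, with 1. Wild type vegetative buds of age 5 and floral buds of age 6, both with no stated sex, and male floral buds of age 6 enter as levels only. Each oligo has 1 value per array, read as a log2 intensity from its range, and every fold below rests on that reading. Levels are log2 intensities after quantile normalization, differences are basal minus upper on the log2 scale with the standard error (SE) of limma, and a call is an adjusted p under 0.05 over all 217 oligos. A gene-like name is given for 34 oligos, and the other 183 are known by clone or accession.

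A shoot tip holds the apical meristem and the youngest leaves and internodes. Auxin made in young leaves moves from cell to cell through PIN efflux carriers, and Aux/IAA proteins hold auxin-responsive genes in check until auxin triggers their breakdown. Phytochromes and cryptochromes read red and blue light. In Arabidopsis, CONSTANS passes day length on to flowering, LEAFY and APETALA1 start a flower, and AGAMOUS and the DEFICIENS type of gene set its organs. In long-lived trees, shoots near the base are often described as keeping juvenile traits that the upper crown has lost.

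The isolations of a side resembled each other more than those of the other side. Basal isolations a and b correlated at 0.954 over the oligos and upper isolations a and b at 0.967, while basal with upper isolations gave 0.827 to 0.865. The 2 wells of an isolation correlated at 0.956 to 0.964. The median difference between isolations was 0.42 in basal and 0.28 in upper tips. Among the 8 arrays 33 values were missing, spread over 29 oligos, and every oligo had a value in each of the 4 isolations. None of the shoot meristem, photosynthetic leaf, secondary wall or dormant bud markers looked for is among the named oligos, so the tip label could not be checked against its own markers. The 6 floral bud markers on the array had a mean log2 level of 6 and 5.6 in the basal isolations and of 5.4 and 5.89 in the upper ones. In the floral buds of age 6 the same mean was 11.21 and 10.36 in isolations with no stated sex, and 11.28 in both male ones.

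The isolations were grouped into sets by how their differences between wells correlated, with the number of sets fixed at 5. The sets were made after the data were examined, since the labels give no plate or date. Both upper isolations and basal isolation a share a set, and basal isolation b falls in another. That placement of isolation b is weak: its well difference correlated on average at 0.109 with its own set and at 0.0781 with the next best one. Values within the shared set, from basal isolation a alone against both upper isolations, are given where they end a call.

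In May at age 5, basal tips differed from upper tips in 73 of 217 oligos, 33.6% of the array, by limma with Benjamini-Hochberg adjustment. Of these, 43 were higher in basal tips (19.8%) and 30 lower (13.8%). The falls were larger than the rises: the median called difference was -1.9 among falls and 1.15 among rises, and 12 falls against 9 rises were at least 4-fold. The isolations of both sides did not overlap for any of the 73, as for 138 of all 217 oligos (63.6%). Scaling moved the split between rises and falls: it was 38 to 49 without normalization and 42 to 39 after centring each array on its median. The median oligo stood at 0.15 after quantile normalization, at 0 as deposited and at 0.09 after centring, and differences are to be read relative to it. All 73 called oligos kept their sign in both other scalings, and 68 kept their call in both.

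Each sample is bulk RNA, so fewer cells of a type and less RNA per cell cannot be told apart in any of these differences.

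**Figure D1:**
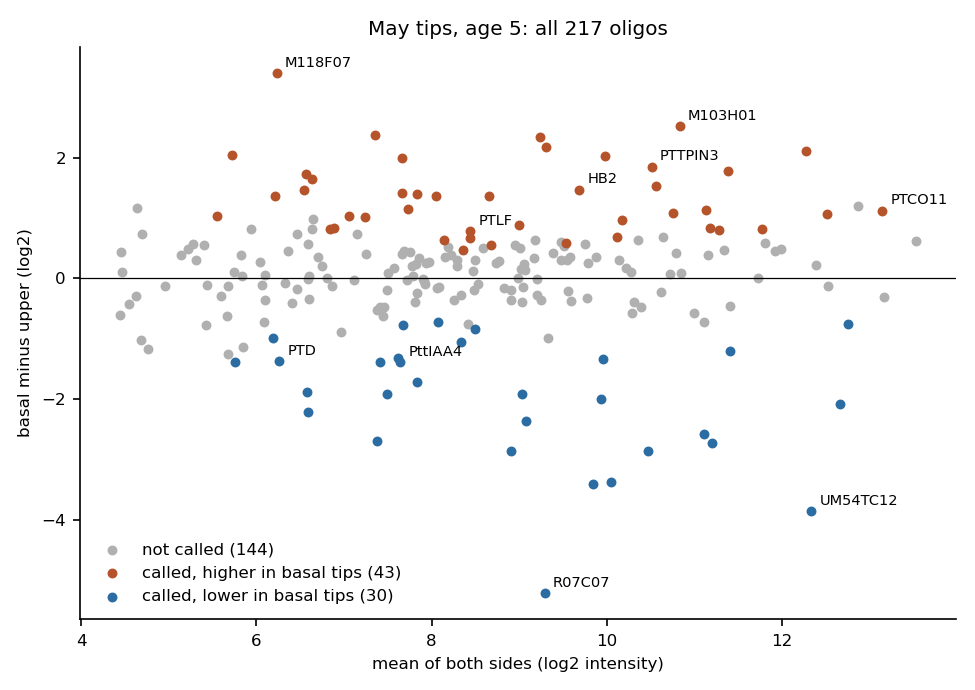
Difference of basal minus upper tips (log2, y axis) against the mean of both sides (log2 intensity, x axis) for the 217 oligos in May tips of age 5, with n = 2 isolations a side. The 43 called rises (orange) lie at or below 3.40, while the 30 called falls (blue) reach -5.21, and 144 oligos (grey) were not called.

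Among the 34 oligos with a gene-like name, 14 were higher in basal tips and 3 lower, and 17 were not called. Their median difference was 0.69, against 0.15 over all oligos. Oligos known by clone name or accession gave 29 rises and 27 falls, with a median of 0.09.

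Auxin transport genes stood among the largest rises with a gene name. PTTPIN3, a PIN efflux carrier, measured 11.34 and 11.54 in basal isolations a and b and 9.57 and 9.60 in upper isolations a and b. It was higher in basal tips by 1.85 ± 0.46 (SE, n = 2 and 2 isolations, adjusted p = 0.00267), or 3.61-fold. PTTPIN1 measured 7.31 and 7.54 in basal and 5.39 and 6 in upper tips, a rise of 1.73 ± 0.38 (adjusted p = 9.5e-04). The groups did not overlap for either carrier, as for 63.6% of all oligos. The third carrier, PTTPIN2, measured 4.41 and 5.39 in basal and 6.25 (1 well, the other value missing) and 3.78 in upper tips. Its upper isolations lay on either side of the basal ones, and the difference was -0.12 ± 0.60 (adjusted p = 0.904).

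The Aux/IAA repressors of auxin response moved both ways. Of 5 members, 2 rose, 1 fell and 2 were not called, with a median of 0.60, against 19.8% rises, 13.8% falls and a median of 0.15 over all oligos. PttIAA2 measured 11.15 and 11.50 in basal and 9.59 and 10 in upper tips, a rise of 1.53 ± 0.27 (adjusted p = 1.2e-04). PttIAA1 measured 11.40 and 11.80 against 10.60 and 10.92, a rise of 0.84 ± 0.18 (adjusted p = 8.3e-04). Its basal mean of 11.60 was the highest of the 19 groups of the series. Within the shared set PttIAA1 stood at 0.64 ± 0.24 (adjusted p = 0.0774). PttIAA4 went the other way, at 6.54 and 7.36 in basal and 8.79 and 7.88 in upper tips, a fall of 1.39 ± 0.46 (a difference of -1.39, adjusted p = 0.0218). Basal isolation b and upper isolation b lay 0.52 apart, and without isolation a of either side the PttIAA4 call was lost, with an adjusted p up to 0.236. PttIAA6 (0.60 ± 0.33, adjusted p = 0.167) and PttIAA5 (0.09 ± 0.24, adjusted p = 0.809) were not called, nor was PTIR1, named after the auxin receptor TIR1 (0.38 ± 0.53, adjusted p = 0.595).

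Both CONSTANS homologs were higher in basal tips. PTCO11 measured 13.43 and 13.98 in basal and 12.44 and 12.72 in upper tips, a rise of 1.12 ± 0.22 (adjusted p = 2.4e-04). PTCO12 measured 13.23 and 12.87 against 12.02 and 11.93, a rise of 1.07 ± 0.24 (adjusted p = 0.00116). These are among the brightest oligos of the array, well over the upper quartile of 9.75 in these isolations, and the rises came to 2.17-fold and 2.11-fold. Within the shared set PTCO11 was at 0.84 ± 0.31 (adjusted p = 0.0728) and PTCO12 at 1.25 ± 0.38 (adjusted p = 0.0443).

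Of 4 light receptors, 2 were higher in basal tips, where 19.8% of all oligos were. The cryptochrome PTCRY1D, a blue light receptor, measured 8.75 and 8.71 in basal and 7.27 and 7.48 in upper tips, a rise of 1.36 ± 0.24 (adjusted p = 1.2e-04). The gap between the sides was wider than the gap within either. The phytochrome PHYB2 measured 7.22 and 7.28 against 6.39 and 6.47, a rise of 0.82 ± 0.26 (adjusted p = 0.0163). That call was lost on leaving out any 1 of the 4 isolations, where the adjusted p reached 0.08, as well as before normalization (0.56, adjusted p = 0.105) and within the shared set (0.79 ± 0.36, adjusted p = 0.13). PHYB1 (0.46 ± 0.31, adjusted p = 0.253) and PHYA (-0.63 ± 0.45, adjusted p = 0.278) were not called.

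Both homeobox genes by name were higher in basal tips. HB2 measured 10.39 and 10.45 in basal and 9.12 and 8.79 in upper tips, a rise of 1.47 ± 0.23 (adjusted p = 1.7e-05). HB1 measured 8.90 and 8.16 against 7.03 and 7.24, a rise of 1.39 ± 0.29 (adjusted p = 5.0e-04). The basal mean of HB1, 8.53, was the highest of the 19 groups, with vegetative buds of age 5 next at 8.36. The basal isolations of HB1 differed more than those of HB2. PTPGM had the smallest adjusted p among the gene-named oligos, at 11.20 and 11.38 in basal and 10.33 and 10.09 in upper tips, a rise of 1.08 ± 0.16 (adjusted p = 1.4e-05).

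PTID1L1A, named after the maize flowering regulator INDETERMINATE1, measured 7.53 and 7.95 in basal and 6.58 and 6.87 in upper tips, a rise of 1.01 ± 0.37 (adjusted p = 0.036). Leaving out 1 isolation ended its call in 3 of 4 cases (adjusted p up to 0.183), as did the values before normalization (adjusted p = 0.0736). Within the shared set PTID1L1A was at 0.80 ± 0.56 (adjusted p = 0.301). The other INDETERMINATE1-like oligos, PTID1L3 (0.98 ± 0.47, adjusted p = 0.112) and PTID1L4 (0.64 ± 0.64, adjusted p = 0.467), were not called. Their basal isolations lay above the upper ones, but the sides did not overlap for 63.6% of all oligos either. For PTID1L3 the upper isolations measured 6.92 and 5.38, and without upper isolation a it was at 1.75 ± 0.51 (adjusted p = 0.0136). PTBF1 measured 5.40 and 6.73 in basal and 5.02 and 5.04 in upper tips, a rise of 1.03 ± 0.33 (adjusted p = 0.0163) that rests on basal isolation b. Without that isolation PTBF1 was at 0.36 and lost its call, as it did without either upper isolation. It also lost its call in the values as deposited (0.65, adjusted p = 0.211) and after centring (adjusted p = 0.127). The same held with wells as separate arrays, with only the 4 isolations and within the shared set. Its levels lie under the lower quartile of these isolations, 6.81. R-AP2, an AP2-type gene by name, measured 12.25 and 12.21 against 11.74 and 11.77 (0.48 ± 0.20, adjusted p = 0.0717), and it passed after centring (adjusted p = 0.0273).

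**Figure D2:**
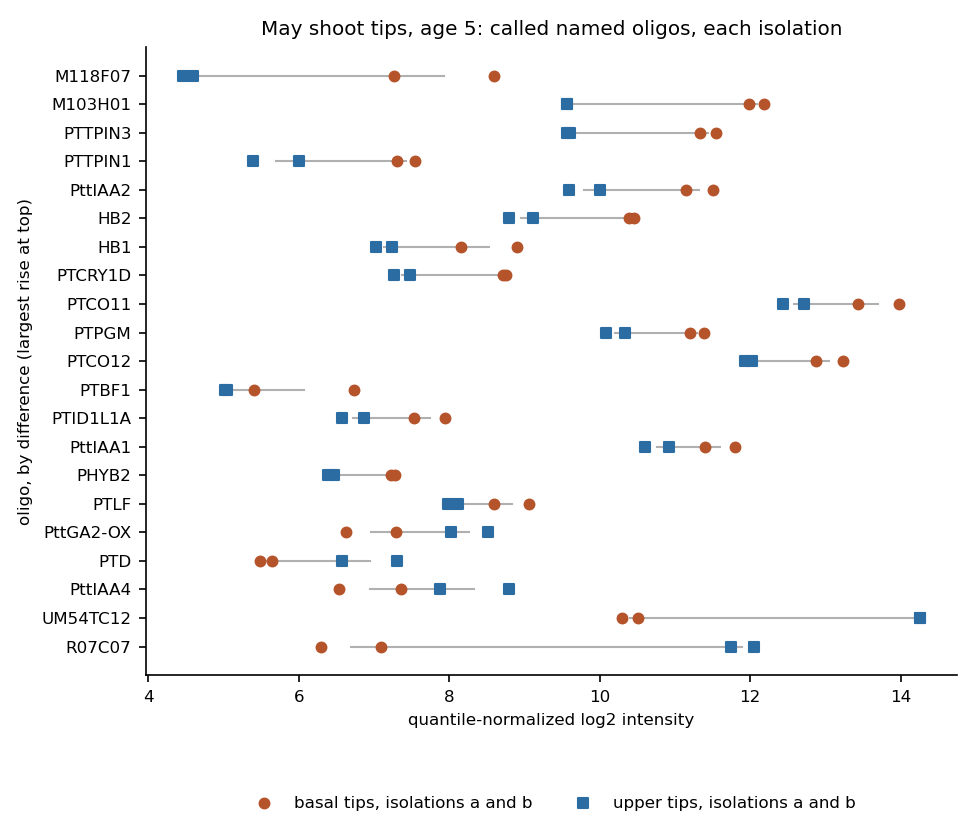
Level of each isolation (quantile-normalized log2 intensity, x axis) for the 17 called genes by name and 4 clone oligos, in basal (orange circles) and upper (blue squares) May tips of age 5, with a grey line between the means of both sides. The sides do not overlap for any oligo shown, as for 63.6% of all oligos. PTBF1 has the smallest gap beside its spread, with basal values of 5.40 and 6.73. UM54TC12 in upper tips sits at the top value of the scale, 14.26.

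Of 2 gibberellin genes, 1 was lower in basal tips and 1 was not called. PttGA2-OX, whose enzyme inactivates gibberellin, measured 6.63 and 7.29 (1 well, the other value missing) in basal and 8.51 and 8.02 in upper tips. It was lower in basal tips, at -1.31 ± 0.37 (adjusted p = 0.00749), and its basal mean of 6.96 was the lowest of the 19 groups. Without isolation a of either side its call was lost, with an adjusted p up to 0.112. GA20-OX, whose enzyme acts in gibberellin synthesis, had basal values of 5.33 and 5.59 and upper values of 5.21 and 4.73 (0.49 ± 0.57, adjusted p = 0.533). Each of its upper values rests on 1 well.

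Of the 6 genes of flower identity, 1 rose, 1 fell and 4 were not called, a share close to the 33.6% called over all oligos. The LEAFY homolog PTLF measured 9.06 and 8.60 in basal and 8.12 and 7.98 in upper tips, a rise of 0.78 ± 0.23 (adjusted p = 0.0118). Its upper mean of 8.05 was the lowest of the 19 groups, close to 8.21 in May upper tips of age 2. Its floral bud levels were 10.64 and 10.74 (male). Without basal isolation a or upper isolation b the PTLF call was lost, with an adjusted p up to 0.16. The DEFICIENS homolog PTD measured 5.65 and 5.48 in basal and 6.58 and 7.30 in upper tips, at -1.37 ± 0.43 (adjusted p = 0.0157). Its basal mean of 5.57 was the lowest of the 19 groups, but others were near it. Basal tips of June stood at 5.66 (age 5) and 5.71 (age 6), those of May age 6 at 5.94 and vegetative buds of age 5 at 5.9. All of these lie under the lower quartile of the compared isolations, 6.81. The call of PTD was lost without isolation b of either side, where the adjusted p reached 0.149, as well as within the shared set (-1.29 ± 0.46, adjusted p = 0.0716). The APETALA1 homologs PTAP1-1B (1.17 ± 0.60, adjusted p = 0.135) and PTAP1-2A (0.74 ± 0.73, adjusted p = 0.462) and the AGAMOUS homologs PTAG1 (-0.30 ± 0.58, adjusted p = 0.73) and PTAG2 (-0.12 ± 0.43, adjusted p = 0.868) were not called. PTAP1-2A averaged 5.06 and 4.32 in basal and upper tips, against 13.79 in floral buds. The relatives of CENTRORADIALIS and of MOTHER OF FT AND TFL1, PCEN-L (-0.01 ± 0.28, adjusted p = 0.986) and PMFT (-0.36 ± 0.20, adjusted p = 0.162), were not called either, and PMFT passed as deposited (-0.47, adjusted p = 0.0484). PTB2 stood at -0.02 ± 0.43 (adjusted p = 0.986).

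The largest differences lay in oligos that the files do not pair with a gene. R07C07 measured 6.29 and 7.09 in basal and 11.74 and 12.05 in upper tips, at -5.21 ± 0.27 (adjusted p = 1.0e-12), or 36.9-fold lower in basal tips. Its upper mean, 11.89, was the highest and its basal mean, 6.69, the lowest of the 19 groups. UM54TC12 measured 10.29 and 10.51 against 14.26 and 14.26, at -3.85 ± 0.21 (adjusted p = 1.0e-12). It was the brightest oligo on all 4 upper wells, where quantile normalization gives it the same top value, 14.26. The deposited upper values were 16.12 and 16.25 for the wells of isolation a and 15.79 and 15.93 for those of isolation b, so that its fall as deposited was larger, at -5.53 (46.1-fold) against 14.4-fold after scaling.

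Among rises, M118F07 measured 7.26 and 8.60 in basal and 4.46 and 4.59 in upper tips, at 3.40 ± 0.35 (adjusted p = 3.6e-08), or 10.6-fold. Its upper isolation a rests on 1 well, since the other value is missing. M103H01 measured 11.98 and 12.19 against 9.57 and 9.57, at 2.52 ± 0.20 (adjusted p = 6.9e-10), and its upper level was the lowest of the 19 groups. Within the shared set M118F07 was at 2.73, M103H01 at 2.41, R07C07 at -5.61 and UM54TC12 at -3.96, all 4 still called.

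The same position contrast exists in the series for May at age 6 and for June at both ages, in samples that share none with May at age 5. In June at age 6, 86 oligos were called (39.6%), and in June at age 5, with 1 upper isolation, 55 (25.3%). In June at age 6 each side lies in its own set of well differences. Position and set can therefore not be told apart within that pair. With the set as a term 42 were called. Only basal isolations a and b of June age 5 link both sets, so that term cannot separate position from set. In May at age 6 the count was 10 (4.61%). That small count fell to 4 without basal isolation b, 3 without upper isolation a and 6 without upper isolation b of May age 6.

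Of the 73 oligos called in May at age 5, 44 were also called with the same sign in June at age 6, which is 60.3% of the May calls and 51.2% of the June calls. For June at age 5 the shared calls were 37, or 50.7% of the May calls and 67.3% of the June calls. For May at age 6 they were 8, or 11% and 80%. The same sign, called or not, was found for 60 of the 73 in June at age 6, 63 in June at age 5 and 51 in May at age 6. The share of same signs over all oligos was not counted, so these counts are not read as agreement. Over all oligos, which are not independent replicates, the differences of May at age 5 correlated with those of June at age 6 at a Pearson r of 0.644, with June at age 5 at 0.702 and with May at age 6 at 0.304. All comparisons take their spread from the same model.

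Genes that were higher in basal tips of May at age 5 had these values elsewhere. PTCRY1D was higher by 2.09 in June at age 6 (adjusted p = 3.4e-07) and by 1.55 in June at age 5 (adjusted p = 3.5e-04), and stood at 0.31 in May at age 6 (adjusted p = 0.533). PTTPIN3 was higher by 2.30 and 2.72 in June at ages 6 and 5 (adjusted p = 3.1e-04 and 6.6e-04), and stood at 0.21 in May at age 6 (adjusted p = 0.863). With the set as a term PTTPIN3 in June at age 6 was at 1.90 (adjusted p = 0.135). PTCO11 gave 0.99 and 1.10 in June at ages 6 and 5 (adjusted p = 7.5e-04 and 0.00286) and 0.48 in May at age 6 (adjusted p = 0.201). Both basal isolations of May age 6 sat at 14.26 for PTCO11, the top value of the scale, which limits the 0.48. The June values of PTCO11 depended on quantile normalization: as deposited they were 0 and 0.24 (adjusted p = 1 and 0.583), and after centring -0.03 and 0.11 (adjusted p = 0.926 and 0.828). Of the 17 genes by name called in May at age 5, 11 were called with the same sign in June at age 6, 9 in June at age 5 and 0 in May at age 6. Over all oligos, 39.6%, 25.3% and 4.61% were called in these pairs with either sign. The count of 0 in May at age 6 is therefore near the share over all oligos. In May at age 6 the sign was the same for 10 of the 17 genes, again with no share over all oligos to set beside it. Sizes of these 17 are not compared between pairs, since they were chosen by their call in May at age 5. Across all oligos in May at age 6, 45 had an unadjusted p under 0.05.

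**Figure D3:**
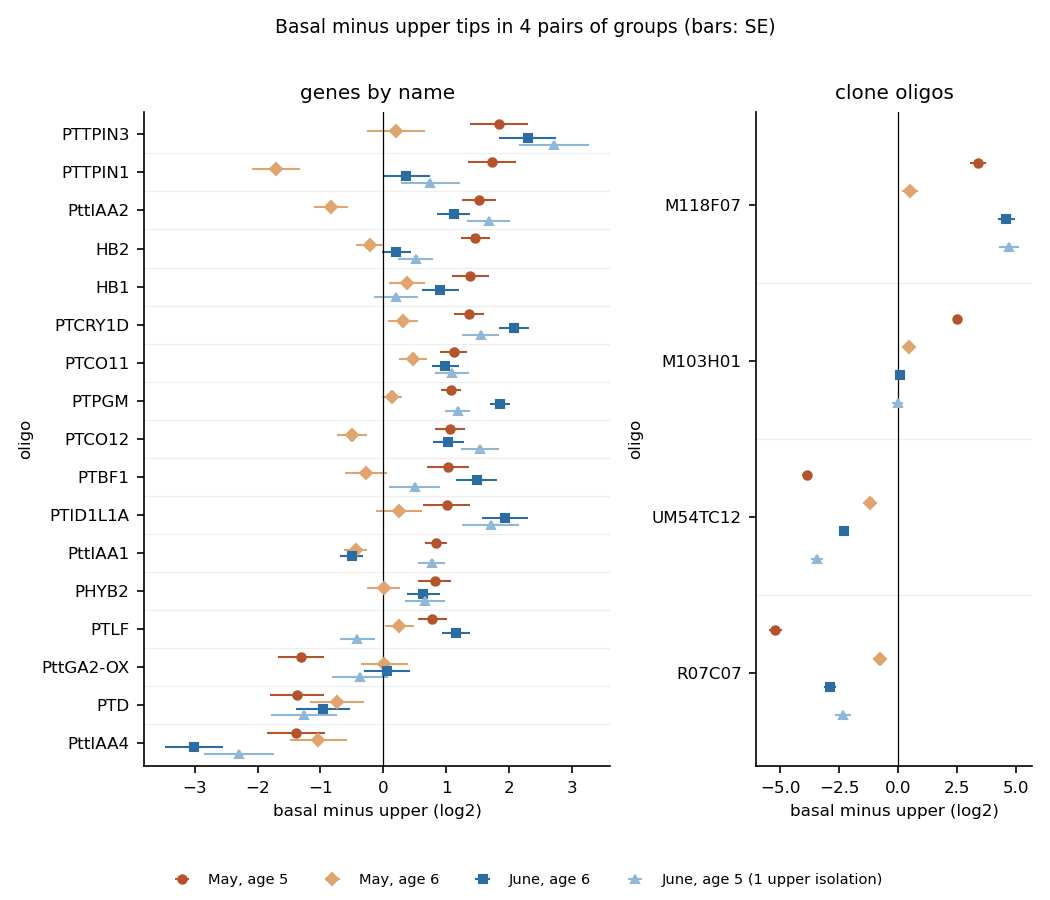
Basal minus upper difference (log2, x axis) with its SE as bars in 4 pairs of groups, for the 17 genes by name called in May at age 5 (left) and 4 clone oligos (right). The oligos were chosen by their May age 5 values (circles), so smaller values elsewhere follow in part from the choice. PTTPIN1 changes sign, from 1.73 to -1.71 in May at age 6 (diamonds).

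Whether the basal difference itself changed between ages and months was tested as a difference of the differences in the same model. Between May at age 5 and May at age 6 it was called for 39 oligos (18%), and 38 of the 39 had the larger difference at age 5. Signs were opposite at both ages for 18 of them. Without upper isolation a of May age 6 the count was 24. In May at age 6 each side lies in its own set of well differences, so position and set cannot be told apart within that pair. With the set as a term in the model, 32 were called. Only basal isolations a and b of age 5 link both sets, so the differences in that fit equal those without basal isolation a. The term therefore cannot separate position from set.

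PTTPIN1 changed most among the 7 genes by name in that test, by 3.43 ± 0.54 (adjusted p = 5.4e-05). In May at age 6 it measured 6.23 and 5.09 in basal and 7.60 and 7.12 in upper tips, a fall of 1.71 in basal tips (a difference of -1.71 ± 0.38, adjusted p = 0.0106), the reverse of age 5. The call of that fall was lost without basal isolation b (-1.13, adjusted p = 0.248) or upper isolation a of May age 6 (-1.47, adjusted p = 0.133), and with the set as a term (-1.93, adjusted p = 0.0751). PttIAA2 changed by 2.36 ± 0.39 (adjusted p = 9.2e-05), with 10.71 and 9.85 in basal and 11.33 and 10.90 in upper tips at age 6. HB2 changed by 1.68 ± 0.32 (adjusted p = 5.1e-04), with 9.47 and 9.55 against 9.83 and 9.61. For these 3 genes the upper tips of age 6 were higher and the basal tips lower than their counterparts of age 5.

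PTCO12 changed by 1.56 ± 0.34 (adjusted p = 0.00196), with 13.29 and 13.57 in basal and 14.26 and 13.57 in upper tips at age 6. The value of 14.26 is the top of the scale, and as deposited the change was 1.24 ± 0.39 (adjusted p = 0.0268). PttIAA1 changed by 1.28 ± 0.26 (adjusted p = 8.8e-04) and PTPGM by 0.94 ± 0.23 (adjusted p = 0.00468). PTCRY1D changed by 1.05 ± 0.35 (adjusted p = 0.0355), but leaving out 1 isolation ended this call in 7 of 8 cases (adjusted p up to 0.157), as did the values before normalization and the set as a term. Among the clone oligos, R07C07 changed by -4.43 ± 0.39, M118F07 by 2.90 ± 0.49, UM54TC12 by -2.66 ± 0.30 and M103H01 by 2.07 ± 0.28 (adjusted p = 2.6e-08, 1.3e-04, 9.7e-07 and 1.3e-05). These clone oligos were chosen for their large differences in May at age 5, so larger values there than in other pairs follow in part from the choice. For UM54TC12, at the top of the scale in upper tips of age 5, the change was larger as deposited (-4.40) and after centring (-4.32).

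Against June at age 6, 42 oligos differed in their basal difference (19.4%), and 22 of the 42 had the larger difference in May at age 5. Without basal isolation a of June age 6 the count was 23, and with the set as a term it was 15. PttIAA1 differed by 1.34 (adjusted p = 9.8e-04), at 0.84 in May and -0.50 in June, where it was lower in basal tips (adjusted p = 0.0364). That June call was lost in 3 of 4 fits that leave out an isolation (adjusted p up to 0.414). HB2 differed by 1.25 (adjusted p = 0.00752), and stood at 0.21 in June. PTPGM differed the other way, by -0.78 (adjusted p = 0.018), with a rise of 1.86 in June, and it lost the call as deposited (-0.29, adjusted p = 0.396) and after centring (-0.17, adjusted p = 0.676). With the set as a term none of these 3 passed, at 0.77, 1.18 and -1 (adjusted p = 0.227, 0.186 and 0.0914). M103H01 differed by 2.42 and R07C07 by -2.32 (adjusted p = 3.2e-06 and 3.9e-04), and both passed with the set as a term. For the June pair that term rests on the basal isolations of June age 5 alone. It therefore cannot separate position from set, whether a call passed or not.

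Against June at age 5, where the upper side is 1 isolation, 19 oligos differed (8.76%). That count was 7 without upper isolation a and 9 without upper isolation b of May age 5, 10 without basal isolation a of May age 5, and 8 without basal isolation a of June age 5. PTLF was the gene by name among them, at 0.78 in May and -0.41 in June, a difference of 1.19 ± 0.37 (adjusted p = 0.0446). Leaving out 1 isolation ended the PTLF call in 5 of 6 cases (adjusted p up to 0.177), as did the set as a term (adjusted p = 0.068).

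**Figure D4:**
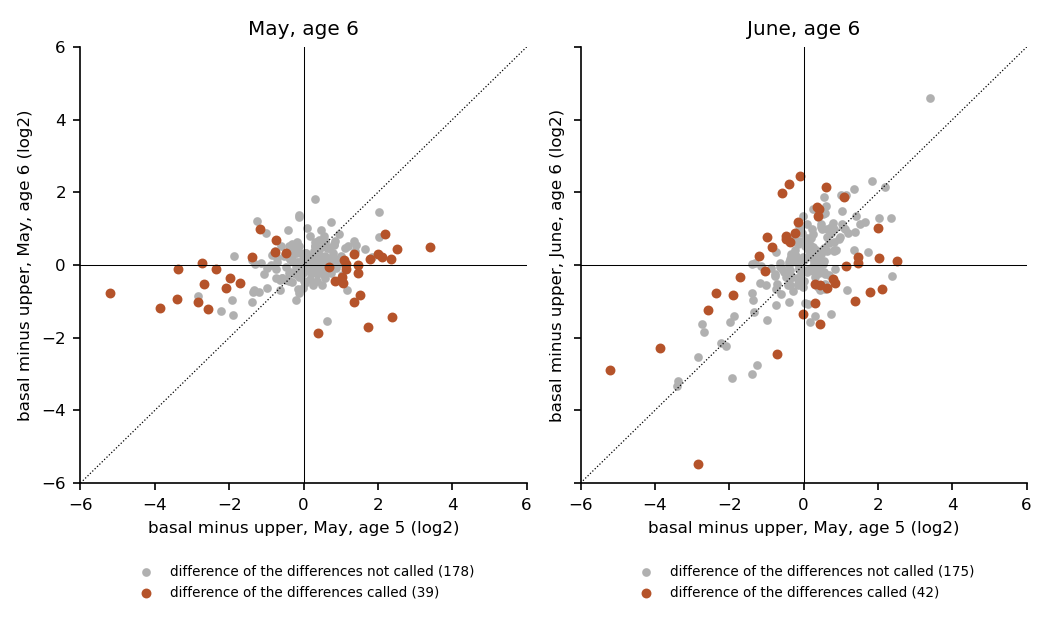
Basal minus upper difference of each of the 217 oligos in May at age 5 (log2, x axis) against the same difference in May at age 6 (left) and in June at age 6 (right), with equal values on the dotted line. Oligos whose differences differed by the test (orange) number 39 and 42. The differences of May at age 5 correlated at 0.304 with those on the left and at 0.644 with those on the right.

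The basal tips of age 5 were also set against May upper tips of ages 1 and 2, which are 2 ages with 2 isolations each. Here 50 oligos were called (23%), 25 higher and 25 lower in the basal tips (11.5% each), and the count was 31 without basal isolation a. This comparison shares its basal isolations with the one against upper tips of age 5, so the values below stand side by side and are not separate support. Of the gene-named oligos 9 were called. HB2 was higher by 1.45 ± 0.20 (n = 2 and 4 isolations, adjusted p = 8.0e-06), at 10.42 in basal tips and 9.25 and 8.70 in upper tips of ages 1 and 2. PTCRY1D was higher by 1.13 ± 0.21, HB1 by 1.10 ± 0.25, PttIAA2 by 0.99 ± 0.24, PTPGM by 0.66 ± 0.14 and PttIAA1 by 0.59 ± 0.16 (adjusted p = 3.8e-04, 0.00185, 0.00312, 0.00111 and 0.00685). PTD (-1.68 ± 0.37), PttIAA4 (-1.15 ± 0.40) and PttGA2-OX (-1.06 ± 0.32) were lower (adjusted p = 0.00148, 0.038 and 0.0153). Leaving out 1 isolation ended the calls of HB1, PttIAA1 and PttIAA2 in 1 of 6 fits each, of PttGA2-OX in 3 and of PttIAA4 in 4. With the set as a term PttIAA1 was at 0.39 ± 0.19 (adjusted p = 0.152).

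Several genes higher in basal than in upper tips of age 5 were not called against young tips, whose ages differ between themselves. PTCO11 averaged 13.70 in basal tips, 12.58 in upper tips of age 5, and 13.98 and 12.74 in upper tips of ages 1 and 2 (0.34 ± 0.19 against their mean, adjusted p = 0.204). PTTPIN3 averaged 11.44 and 9.58 in basal and upper tips of age 5 and 11.16 and 9.98 at ages 1 and 2 (0.87 ± 0.40, adjusted p = 0.132). For both genes the basal tips of age 5 and the upper tips of age 1 were high, and the upper tips of ages 2 and 5 low. The May upper tips of age 6 were high as well, at 13.78 for PTCO11 and 11.82 for PTTPIN3. A trend with age was not tested.

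The clone oligos M118F07 and R07C07 were called against young tips, at 1.52 and -3.34 (adjusted p = 6.0e-04 and 2.3e-10). UM54TC12 was also called lower and M103H01 higher in basal tips (adjusted p = 2.5e-11 and 2.7e-04), and no other setting ended their calls. The M118F07 call was lost without basal isolation b (0.85, adjusted p = 0.057) and with the set as a term (0.85, adjusted p = 0.0748). M118F07 had means of 7.93 in basal and 4.53 in upper tips of age 5, and of 6.79 and 6.02 at ages 1 and 2. R07C07 stood at 6.69 in basal tips, below 8.94 and 11.11 at ages 1 and 2, and below the vegetative buds of age 5 at 8.09.

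**Figure D5:**
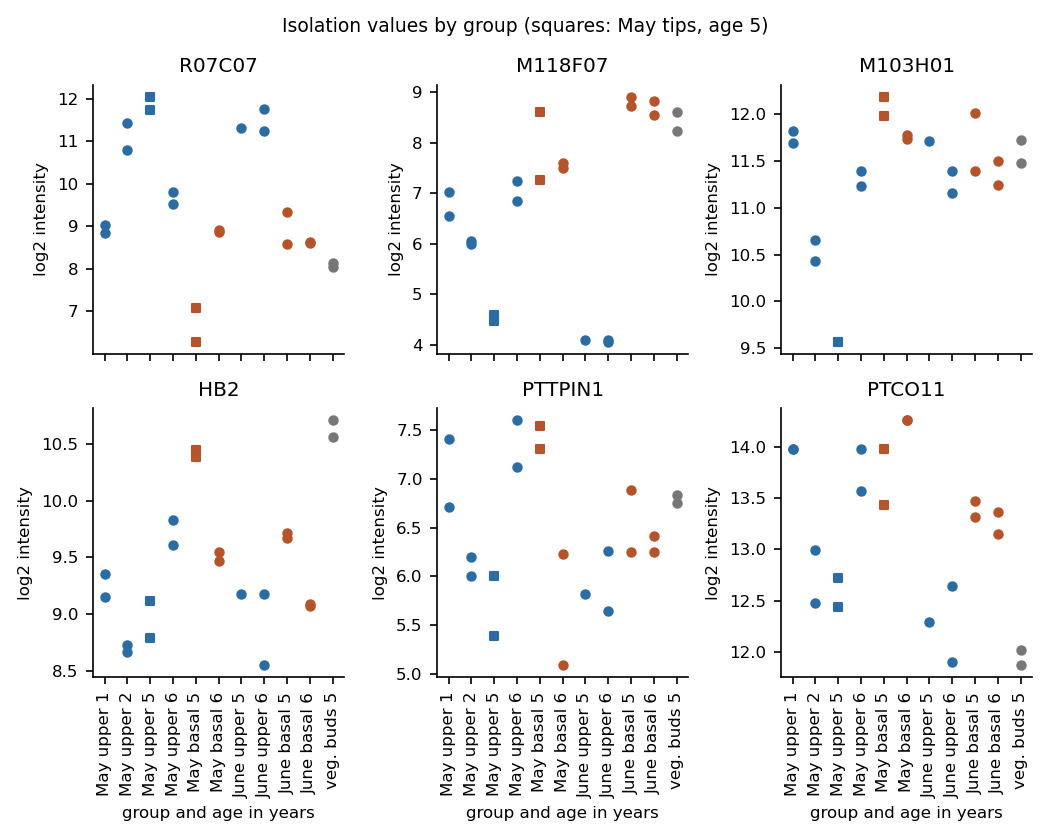
Level of each isolation (log2 intensity, y axis) of 6 oligos by group (x axis, with the age in years), for upper tips (blue), basal tips (orange) and vegetative buds (grey), with squares for May tips of age 5. For R07C07 the basal squares average 6.69 and the upper squares 11.89, and for M118F07 the upper tips of May age 6, at 6.84 and 7.24, lie above those of May age 5, at 4.46 and 4.59.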

How the data were processed

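The authors deposited 1 value per oligo and array for 74 Cy5 arrays, read here as log2 intensities from their range. What the authors did to make these deposited log2 values (log base, scanner, background correction, normalization, merging of duplicate spots) is not given in the sources used here. Array medians ran from 8.05 to 8.79 (8.09 to 8.40 on the 8 arrays compared), a range of 0.735, above the 0.2 allowed, so all arrays were quantile-normalized and the 2 wells of an isolation averaged. Missing values stayed missing. Group means were fitted to 37 isolations in 19 groups with limma 3.58.1 in R 4.3.3 (18 residual degrees of freedom), and tests are two-sided moderated tests of contrasts, adjusted over 217 oligos by Benjamini-Hochberg. The few isolations limit the precision, and without background values signal over background cannot be judged. The fit was tested on simulated data.

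All oligos with a gene-like name are reported. Of oligos with a clone name, the 2 largest rises and 2 largest falls among calls without overlap are named, also for the tests between ages and months. Members, lists and rules were chosen with earlier results of these data known. Isolation letters a and b are shared between groups, but no label says that they pair samples, and the a minus b deviations of basal and upper tips correlated at 0.14. Alternatives were the values as deposited, median centring, wells as separate arrays, other sample sets and filters, the letter and the set of well differences as terms, and leaving out each isolation.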

Additional observations from a re-analysis of the deposited data

Results flagged for a closer look

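Results are listed here because the basal difference of May at age 5 differed, by a test of the difference itself, from that of another age or month. Against May at age 6 this held for 39 oligos, by limma with Benjamini-Hochberg adjustment. The genes by name were PTTPIN1 (3.43), PttIAA2 (2.36), HB2 (1.68), PTCO12 (1.56), PttIAA1 (1.28), PTCRY1D (1.05) and PTPGM (0.94), each higher in May at age 5 on the log2 scale. The clone oligos were M118F07 (2.90), M103H01 (2.07), R07C07 (-4.43) and UM54TC12 (-2.66). They were chosen for their large differences in May at age 5, which favours a larger value there than in other pairs. The value of UM54TC12 is limited by the top of the quantile scale, and was -4.40 as deposited and -4.32 after centring.

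Against June at age 6 it held for 42 oligos, among them PttIAA1 (1.34), HB2 (1.25), PTPGM (-0.78), M103H01 (2.42), R07C07 (-2.32) and UM54TC12 (-1.57), of which UM54TC12 lost its call after centring (adjusted p = 0.0789) and with the set of well differences as a term (adjusted p = 0.081). Against June at age 5 it held for 19 oligos, among them PTLF (1.19), M103H01 (2.53) and R07C07 (-2.86). No group had the 4 isolations needed to look for a single isolation far from the rest.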

How the results depend on the processing

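The count of 73 oligos for basal against upper tips in May at age 5 ran from 52 to 87 over 10 of the other settings and from 58 to 80 without an isolation. With the 4 isolations alone and the isolation letter as a replicate block, which leaves 1 residual degree of freedom, it was 26, and the letter as a replicate block over all isolations gave 72. Without an isolation, the difference from May at age 6 (39) ran from 24 to 40, from June at age 6 (42) from 23 to 44, from June at age 5 (19) from 7 to 24, and basal tips against young tips (50) from 31 to 57. With the set of well differences as a term the difference from June at age 6 gave 15 and June at age 6 itself gave 42 in place of 86. That term cannot separate position from set in this June pair. The letter as a replicate block gave 11 for the difference from June at age 5. May at age 6 (10) gave 17 with wells as separate arrays, 5 in shoot tips alone, 6 without the dimmest 25% of oligos, 4 with the set as a term and 3 to 7 without an isolation; June at age 6 gave 64 to 77 and June at age 5 42 to 51. The causes were not tested.

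One called value turned: PTCO11 in June at age 6, 0.99 after quantile normalization, was -0.03 after centring. Other signs turned in genes that were not called in any of these fits: with the set as a term, or without basal isolation b, PTAG1 (0.08), PTAG2 (0.34) and PTIR1 (-0.01); PttIAA5 as deposited (-0.23) and centred (-0.14); PTTPIN2 with wells as separate arrays (0.19). Without an isolation PTTPIN2 ran from -1.35 to 1.12, PTB2 from -0.75 to 0.71, PTAP1-2A from -0.18 to 1.66, PttIAA5 from -0.17 to 0.35, PTAG1 from -0.67 to 0.08, PTAG2 from -0.58 to 0.34, PTIR1 from -0.01 to 0.78, and PCEN-L reached 0.15. The number of isolations limits what can be called: the median SE was 0.29, and the smallest difference called was 0.47.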
